A study of Danio rerio with 6 samples.

Results

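The 10 genes described here encode the signals that form osteoclasts and the effectors with which osteoclasts dissolve bone. They are tnfsf11, tnfrsf11a, tnfrsf11b, csf1a, csf1ra, ctsk, acp5a, acp5b, tcirg1b and clcn7, taken by gene symbol from a count table of 32520 zebrafish genes. All 10 were found in the table, and all 10 had enough counts to be tested. The symbol table writes ctsk, acp5a, tcirg1b and clcn7 as CTSK, ACP5, TCIRG1 and CLCN7. TCIRG1 is carried by 2 genes, of which ENSDARG00000105142 is tcirg1b.

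GFP-positive cells were sorted from zebrafish embryos at 4 days post fertilization and their RNA was sequenced. The exposed arm gave 3 libraries from embryos exposed to 200 nM bisphenol A (BPA) from 24 hours post fertilization. BPA is a compound with estrogenic activity. The control arm gave 3 libraries. Every embryo, control or exposed, carried the sp7-eGFP transgene, in which regulatory sequence of the osteoblast transcription factor gene sp7 drives the reporter. The labels give 400 embryos per arm, so each library comes from pooled embryos; nothing in them tells if replicate libraries go back to separate pools. The p values therefore measure the spread between these libraries, which may be technical. The contents of the control medium, solvent included, are not given in the labels.

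The exposed libraries held between 30748435 and 42863847 counts and the control libraries between 32173615 and 43403568. The labels call the cells osteoblasts. SP7 was at 8.49 ± 0.355 CPM in exposed and 6.87 ± 1.55 CPM in control libraries (CPM, counts scaled to library size; SD, n = 3 each). Of 20 osteoblast markers tested, 5 were higher, 6 lower and 9 not past the threshold, with a median log2 fold change of -0.12, while their summed level was 13300 to 13420 CPM in exposed and 11040 to 11320 CPM in control libraries. Of the 22 genes on the osteoblast list, only the osteocalcin gene bglap, a marker of mature osteoblasts, had no count in any library. A count of 3, taken as the detection floor, would be at most 0.0974 CPM in an exposed and 0.0930 CPM in a control library. Epidermal markers summed to between 39550 and 40550 CPM in exposed and between 21040 and 21930 CPM in control libraries.

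Osteoclasts are multinucleated cells of the monocyte and macrophage lineage that resorb bone. In mammals, the cytokine CSF1 acts through its receptor CSF1R to keep their precursors alive, and RANKL (the tnfsf11 product) acts through its receptor RANK (tnfrsf11a) to turn those precursors into osteoclasts, while the decoy receptor osteoprotegerin (tnfrsf11b) binds RANKL and blocks it. Osteoblast lineage cells are a major source of RANKL, osteoprotegerin and CSF1, whereas the osteoclast lineage uses RANK, CSF1R and the resorption effectors. Not all of these are confined to that lineage. In zebrafish, macrophages and pigment cells also use csf1ra, and skin ionocytes also rely on the proton pump. The mature osteoclast seals off a patch of bone, acidifies it with a proton pump and a chloride transporter, and digests the exposed collagen with proteases. In zebrafish, osteoclasts become prominent at larval stages later than the one sampled here.

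Of the 10 genes, 5 were higher and 1 was lower in the exposed than in the control libraries at an adjusted p of at most 0.05, and 4 did not pass. The 5 higher genes were csf1a, csf1ra, acp5a, tcirg1b and clcn7, the lower one was ctsk, and the 3 genes of the RANKL, RANK and osteoprotegerin axis were, with acp5b, those that did not pass. The test was edgeR's quasi-likelihood test with Benjamini-Hochberg adjustment over all 21194 genes tested. Of those genes 38.8% passed, with 20.1% higher and 18.7% lower, so calls in either direction were common across the table. In CPM, all 3 exposed values lay above all 3 control values for the same 5 members, as they did for 25.2% of all genes tested. They lay below for ctsk alone, as for 23.2% of genes, and 48.4% of genes had no overlap in either direction. The median log2 fold change of the 10 members was 0.52, against -0.0029 over all genes tested, whose middle 50% lay between -0.31 and 0.38. In bulk RNA, more cells of a type and more RNA per cell cannot be told apart.

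**Figure D1:**
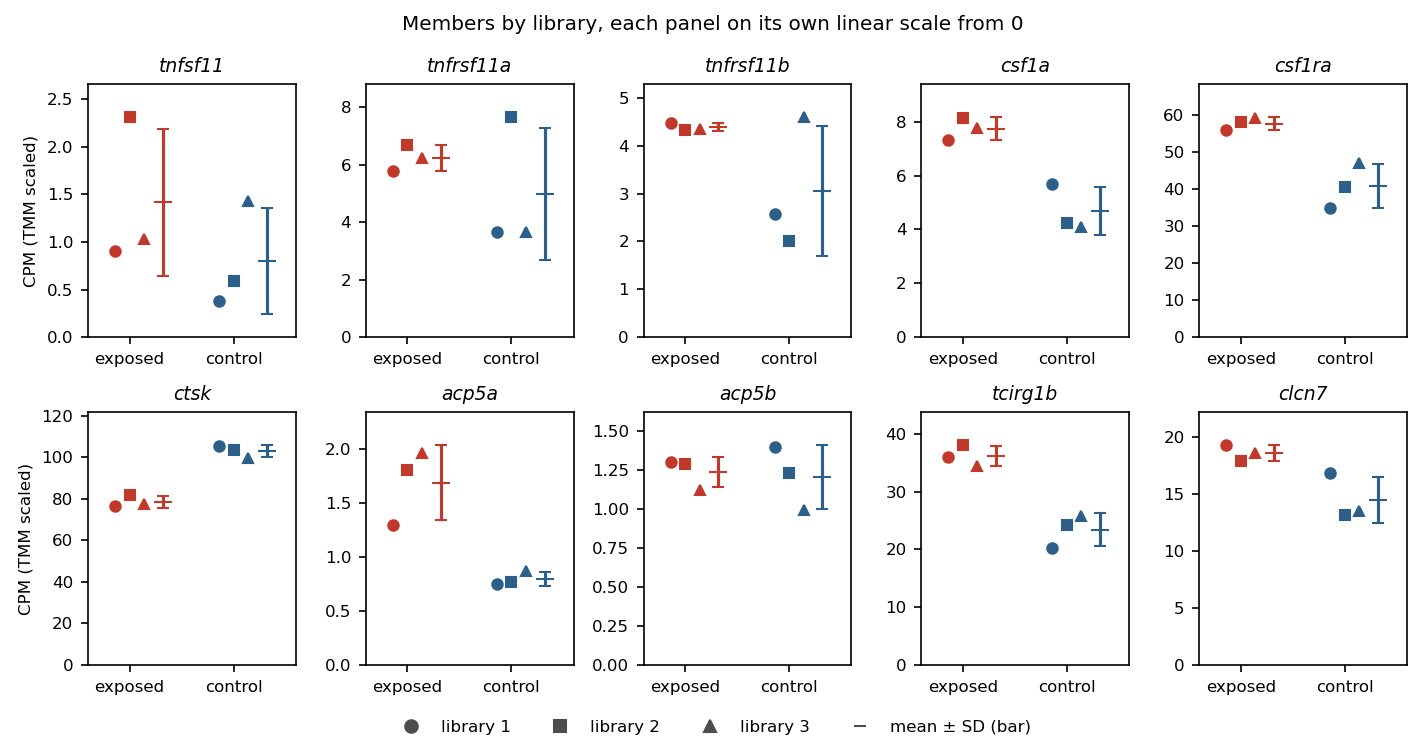
Level of each of the 10 genes in every library, in CPM on a linear axis that starts at 0 and differs between panels. Points are libraries 1 to 3 of the exposed (red) and control (blue) group, and bars are the mean ± SD. The groups do not overlap for csf1a, csf1ra, acp5a, tcirg1b and clcn7, which are higher in exposed libraries, or for ctsk, which is lower; single control libraries reach the exposed range for tnfsf11, tnfrsf11a and tnfrsf11b.

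The RANKL gene tnfsf11 (ENSDARG00000068141) had few counts, 169 summed over the exposed and 86 over the control libraries. Its level was 0.909, 2.31 and 1.03 CPM in exposed libraries 1, 2 and 3, against 0.376, 0.591 and 1.43 CPM in control libraries 1, 2 and 3. Exposed library 2 stood above the rest, and control library 3 lay above exposed libraries 1 and 3, so the groups overlapped. The log2 fold change was 0.85 ± 0.51 (standard error, SE; adjusted p = 0.202), with a 95% interval of the fold from 0.872 to 3.72. Which libraries entered decided the value. Without exposed library 2 the log2 fold change was 0.30, and without control library 3 it was 1.54 with an adjusted p of 0.0254.

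The decoy receptor gene tnfrsf11b (ENSDARG00000098377) had 4.48, 4.33 and 4.35 CPM in the exposed libraries, against 2.58, 2.00 and 4.59 CPM in the control libraries. The exposed libraries were close together, and control library 3 alone reached them. This gave a log2 fold change of 0.53 ± 0.26 (SE, adjusted p = 0.110), with a fold between 0.999 and 2.096. Without that library it was 0.94 (adjusted p = 0.00425), whereas it was 0.43 without control library 1 (adjusted p = 0.226) and 0.30 without control library 2 (adjusted p = 0.399). Control library 3 was thus the highest control for both the ligand and its decoy.

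The balance of ligand and decoy is often read as a ratio. The log2 ratio of tnfsf11 to tnfrsf11b counts, with 0.5 added to each, was -2.28, -0.90 and -2.07 in exposed libraries 1, 2 and 3, against -2.73, -1.74 and -1.68 in control libraries 1, 2 and 3. The groups overlapped, with means of -1.75 ± 0.74 in exposed and -2.05 ± 0.59 in control libraries (SD, n = 3 each). The difference of 0.30 gave an exact two-sided permutation p of 0.6, where 3 against 3 libraries cannot go below 0.1. It changed sign without exposed library 2 (-0.12) or without control library 1 (-0.04). Since the 2 genes may differ in length, only the difference between groups can be read, not the ratio itself.

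The RANK gene tnfrsf11a (ENSDARG00000087804) had 5.78, 6.69 and 6.22 CPM in the exposed libraries, against 3.65, 7.64 and 3.66 CPM in the control libraries. Control library 2, with 336 counts, was the highest of all 6, and the other control libraries were the lowest. This gave a log2 fold change of 0.31 ± 0.23 (SE, adjusted p = 0.302), with a fold between 0.899 and 1.72. Without control library 2 it was 0.77 (adjusted p = 0.00572), whereas it was 0.13 without control library 1 (adjusted p = 0.700) and 0.13 without control library 3 (adjusted p = 0.699). Each of the 3 genes of this axis therefore missed the threshold with all libraries and passed it without 1 control library, while leaving out another library brought each value closer to 0.

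**Figure D2:**
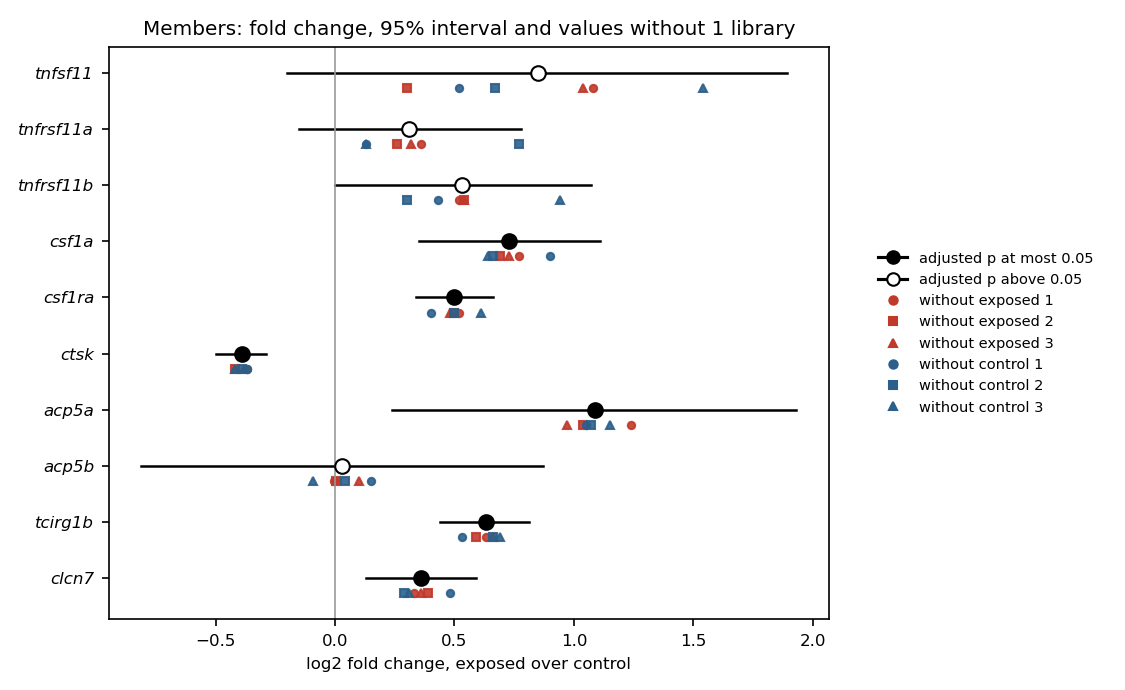
Log2 fold change of each member, exposed over control, with its 95% interval (black; filled where the adjusted p was at most 0.05) and, beneath it, the value after each library was left out (red symbols for exposed, blue for control libraries). The values of tnfsf11 range from 0.30 to 1.54 as libraries are left out, those of ctsk from -0.42 to -0.37, and acp5b lies near 0.

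The CSF1 axis differed more evenly between groups. The ligand gene csf1a (ENSDARG00000075343) had 7.31, 8.14 and 7.77 CPM in exposed libraries 1, 2 and 3, against 5.70, 4.23 and 4.09 CPM in control libraries 1, 2 and 3. Every exposed library was above every control library. With a log2 fold change of 0.73 ± 0.18 (SE, adjusted p = 0.00206), csf1a rose, and the value stayed between 0.64 and 0.90 and past the threshold as each library was left out.

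The receptor gene csf1ra (ENSDARG00000102986), a tyrosine kinase gene that zebrafish macrophages, osteoclasts and the yellow pigment cells called xanthophores all use, was also higher. It had 55.8, 58.1 and 59.1 CPM in the exposed libraries, against 35.0, 40.6 and 46.9 CPM in the control libraries. The control libraries spread more, but none reached the exposed range. Its log2 fold change was 0.50 ± 0.08 (SE, adjusted p = 4.66e-06), and 0.40 to 0.61 with each library left out. Macrophage markers were higher in 16 of 26 tested genes and lower in 2, csf1ra included; their summed level was 1245 to 1267 CPM in exposed and 1320 to 1385 CPM in control libraries, and 397 to 408 against 261 to 266 CPM without the lipid carrier gene apoeb (a sum added after the values were seen). Several genes of this list share the symbol MFAP4 or MPEG1, so the 26 tested genes stand for fewer markers. Among them MPEG1 (ENSDARG00000043093), which encodes a pore-forming protein of macrophages, had 43.1, 38.4 and 40.4 CPM in exposed and 7.145, 8.727 and 7.997 CPM in control libraries, and another MPEG1 gene (ENSDARG00000078569) was at 0 throughout. A further MPEG1 gene on the list, ENSDARG00000055290, is not described here. Xanthophore markers were higher in 8 of 11 tested genes and lower in 1, also with csf1ra counted, and summed to 889 to 917 CPM in exposed and 693 to 714 CPM in control libraries. The part of either cell type in the csf1ra result was not tested.

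Of the 3 other genes of this axis, 1 was higher, 1 lower and 1 not past the threshold. The gene il34, whose product is the other ligand of the CSF1 receptor, rose to 9.17 ± 0.524 CPM in exposed libraries, against 5.45 ± 0.969 CPM in control libraries (SD, n = 3 each; log2 fold change 0.75, adjusted p = 7.11e-04). The paralog csf1b fell to 17.6 ± 0.365 CPM in exposed libraries, against 21.6 ± 3.52 CPM in control libraries (log2 fold change -0.29, adjusted p = 0.0353). That call was lost without control library 1 (adjusted p = 0.290), without any 1 exposed library (adjusted p between 0.0818 and 0.115) and with DESeq2 (adjusted p = 0.0626). The receptor paralog csf1rb was at 5.28 CPM in exposed and 3.73 CPM in control libraries and did not pass (log2 fold change 0.49, adjusted p = 0.0843).

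The paralogs csf1a and csf1b could be set against each other within each library. The log2 ratio of csf1a to csf1b was -1.26, -1.14 and -1.15 in exposed libraries 1, 2 and 3, against -2.16, -2.13 and -2.34 in control libraries 1, 2 and 3. The groups were far apart on this scale, with a difference of 1.02 and an exact permutation p of 0.1, the smallest possible. For csf1ra and csf1rb the difference of log2 ratios was -0.03 (exact permutation p = 1), with control library 3 at 4.2 and the other 5 libraries between 3.10 and 3.58; without control library 3 it was 0.33. Altogether 5 such ratios were computed, 4 of them chosen after the values were seen, and none had an adjusted exact p below 0.167.

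The acid secretion members were both higher. The gene tcirg1b (ENSDARG00000105142) encodes the a3 subunit of the vacuolar proton pump, the V-ATPase, and loss of its mammalian counterpart leaves osteoclasts unable to acidify bone. It had 36.1, 38.1 and 34.5 CPM in exposed libraries 1, 2 and 3, against 20.3, 24.3 and 25.8 CPM in control libraries 1, 2 and 3. The exposed values all lay above the control values, with a log2 fold change of 0.63 ± 0.09 (SE, adjusted p = 1.19e-06) that remained between 0.53 and 0.69 as each library was left out. The other gene named TCIRG1 (ENSDARG00000016835), which is not a member, had 7.697, 6.496 and 7.675 CPM in exposed and 6.29, 7.86 and 9.24 CPM in control libraries and did not pass (adjusted p = 0.705). The log2 ratio of tcirg1b to this gene differed by 0.72 between groups without overlap (exact permutation p = 0.1, the smallest possible).

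The gene clcn7 (ENSDARG00000019556) encodes the chloride-proton exchanger that balances the charge moved by the pump. It had 19.3, 17.9 and 18.6 CPM in the exposed libraries, against 16.8, 13.1 and 13.5 CPM in the control libraries. Control library 1 came close to the exposed range, and the groups did not overlap. It rose with a log2 fold change of 0.36 ± 0.11 (SE, adjusted p = 0.0128), and the call was lost without exposed library 1 (adjusted p = 0.0608) or without control library 2 (adjusted p = 0.0636). OSTM1, which encodes the partner subunit of this exchanger, was at 11.1 CPM in exposed and 10.3 CPM in control libraries and did not pass (log2 fold change 0.10, adjusted p = 0.593).

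Besides the members, 32 other acid secretion genes were tested, of which 19 were higher, 4 lower and 9 not past the threshold, with a median log2 fold change of 0.36. The higher ones include snx10b, which passed the count filter only through the exposed libraries. ATP6V1C1 (ENSDARG00000035880), which encodes the C subunit of the pump's cytosolic part, rose to 91.9 ± 1.93 CPM in exposed libraries, against 43.6 ± 4.91 CPM in control libraries (SD, n = 3 each). The carbonic anhydrase gene ca2, whose product makes the protons that are pumped, rose to 72.1 ± 5.36 CPM, against 35.7 ± 3.11 CPM. SLC4A2 (ENSDARG00000052330), a chloride-bicarbonate exchanger gene, rose to 20.8 ± 2.74 CPM, against 10.6 ± 2.50 CPM. Adjusted p values for these 3 genes lay between 2.95e-14 and 1.22e-06. The other gene named ATP6V1C1 and the other gene named SLC4A2 did not pass.

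Several pump subunits have a pair of genes under 1 symbol. Both ATP6V1A genes were higher (log2 fold changes 0.86 and 0.52), neither ATP6V0A2 gene passed, and other pairs split. ATP6V1B2 (ENSDARG00000013443), a gene for the B subunit, was at 242 CPM in exposed and 129 CPM in control libraries (log2 fold change 0.91), whereas its namesake ENSDARG00000043465 was at 11.7 and 17.2 CPM (log2 fold change -0.54). For ATP6V0C, a proteolipid gene of the membrane ring, ENSDARG00000057853 was at 564 CPM in exposed and 440 CPM in control libraries and ENSDARG00000036577 at 39.9 and 54.2 CPM (log2 fold changes 0.36 and -0.44). For ATP6V0A1, a paralog of the tcirg1b subunit, ENSDARG00000020847 was higher and ENSDARG00000015174 lower (log2 fold changes 0.52 and -0.40). The accessory subunit gene atp6ap1a fell to 17.5 CPM in exposed libraries, against 27.1 CPM in control libraries, and its paralog atp6ap1b was higher (log2 fold changes -0.63 and 0.57). Skin ionocytes also rely on this pump and on ca2. Their markers were higher in 11 of 16 tested genes and lower in 1, ca2 and both ATP6V1A genes included, and summed to 1780 to 1804 CPM in exposed and 1166 to 1189 CPM in control libraries; their part in the acid secretion result was not tested.

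**Figure D3:**
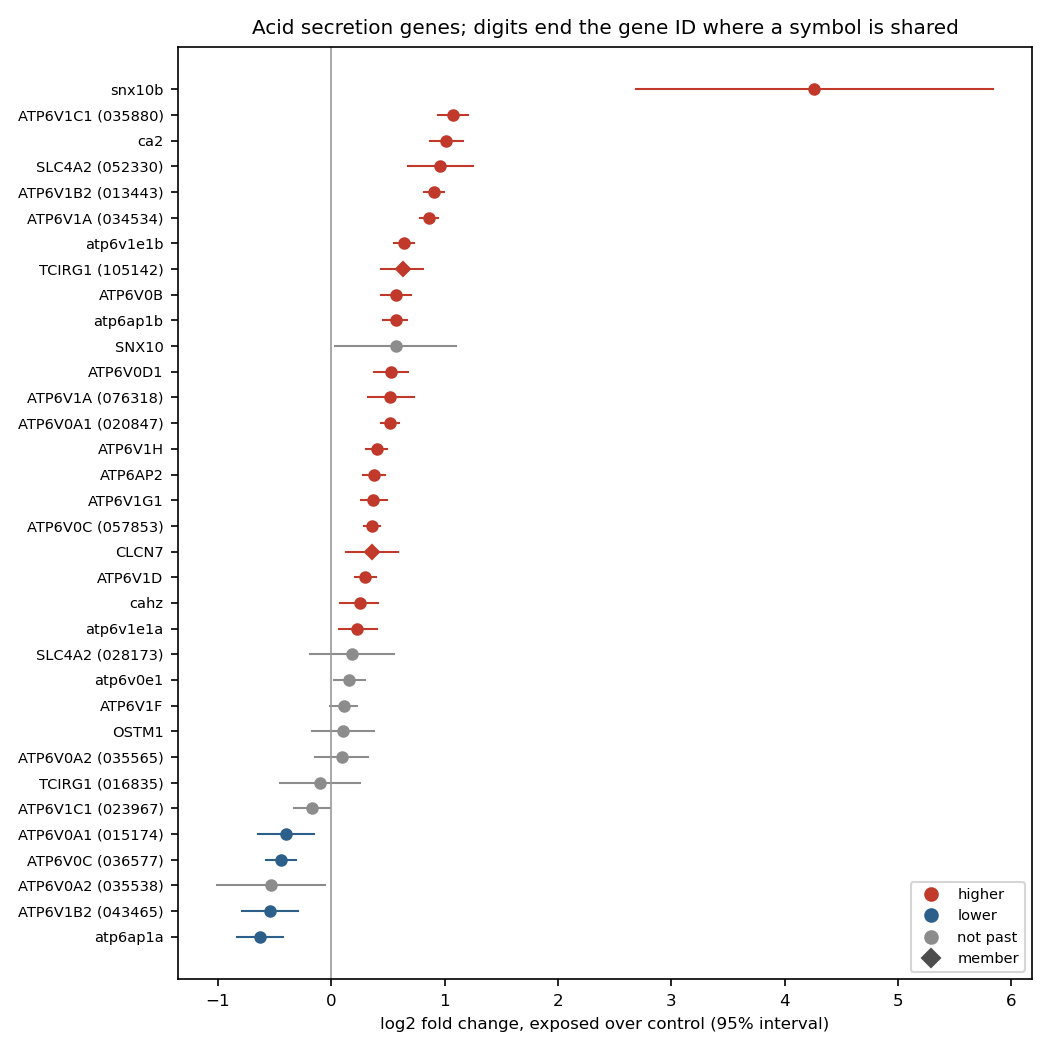
Log2 fold change, exposed over control, of the 34 acid secretion genes tested, members among them as diamonds, with 95% intervals. Red genes were higher and blue genes lower at an adjusted p of at most 0.05, and grey genes did not pass. Most genes lie to the right of 0, and 4 genes are blue, among them 1 gene each of the ATP6V0A1, ATP6V0C and ATP6V1B2 pairs.

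The gene acp5a (ENSDARG00000019763) encodes tartrate-resistant acid phosphatase, the enzyme by which osteoclasts are usually stained. It had 40, 76 and 84 counts in the exposed libraries, against 28, 34 and 28 in the control libraries, or 1.30, 1.81 and 1.97 CPM against 0.752, 0.773 and 0.868 CPM. The control libraries were close together and all lay below the exposed ones. Its log2 fold change was 1.09 ± 0.41 (SE, adjusted p = 0.0365), the largest of the 10. The call was lost in 4 of the 6 fits that left out a library, with adjusted p values up to 0.162 (without exposed library 3), while the log2 fold change stayed between 0.97 and 1.24.

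Its paralog acp5b (ENSDARG00000101456) had 1.30, 1.29 and 1.12 CPM in the exposed libraries, against 1.40, 1.23 and 0.992 CPM in the control libraries. The groups covered nearly the same range, and the log2 fold change was 0.03 ± 0.41 (SE, adjusted p = 0.962), with a fold between 0.572 and 1.83. The log2 ratio of acp5a to acp5b was 0, 0.49 and 0.80 in exposed libraries 1, 2 and 3, against -0.88, -0.66 and -0.19 in control libraries 1, 2 and 3. The groups did not overlap on this ratio either (difference between group means 1.01, exact permutation p = 0.1, the smallest possible). Whether reads that fit both paralogs were counted is not stated in the sources used here.

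Cathepsin K, the ctsk product (ENSDARG00000040251), is the protease with which osteoclasts cut collagen. Of the 10 genes it alone fell. It had 76.4, 81.7 and 77.5 CPM in exposed libraries 1, 2 and 3, against 105.5, 103.7 and 99.9 CPM in control libraries 1, 2 and 3. The groups were well apart and each was tight. Its log2 fold change was -0.39 ± 0.05 (SE, adjusted p = 2.76e-07), and it lay between -0.42 and -0.37 with each library left out.

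The other genes on the list of matrix-degrading effectors also went both ways. Besides proteases, that list holds the matrix protein gene SPARC, the cathepsin inhibitor gene cst3 and 2 TIMP2 genes, which encode metalloproteinase inhibitors. Of the TIMP2 pair, 1 gene was lower and 1 did not pass. Of 17 tested besides the members, 6 rose, 8 fell and 3 did not pass, with a median log2 fold change of -0.13. The cathepsin L gene ctsl.1 rose to 82.2 ± 6.52 CPM in exposed libraries, against 35.6 ± 2.03 CPM in control libraries (SD, n = 3 each), the cathepsin S gene ctss2.1 rose to 28.8 ± 1.04, against 14.3 ± 0.920 CPM, and the collagenase gene mmp13a to 25.9 ± 1.67, against 13.3 ± 1.39 CPM. By contrast, another cathepsin L gene, ctsla, fell to 567 ± 7.31 CPM in exposed libraries, against 833 ± 19.4 CPM in control libraries. Both MMP14 genes, which encode membrane-bound metalloproteinases, also fell, ENSDARG00000002235 to 105 CPM in exposed libraries, against 155 CPM in control libraries, and ENSDARG00000008388 to 29.4 CPM, against 42.3 CPM. Chondrocyte markers were lower in 13 of 21 tested genes and higher in 1, and summed to 1697 to 1747 CPM in exposed and 1937 to 1996 CPM in control libraries. Tendon and fibroblast markers were lower in 14 of 24 and higher in 5, and summed to 3983 to 4026 against 4403 to 4553 CPM. Neutrophil markers, which include mmp13a, were higher in 7 of 13 and lower in 1. They summed to 1590 to 1637 against 998 to 1034 CPM, of which mmp13a made up little. The sum is not broken down further here, so it is no measure of neutrophil number. The neutrophil lysozyme gene lyz was near the floor (0.186 and 0.282 CPM), and the list symbols mpx, cpa5 and il8 had no match in the symbol table. The part of these cell types in the protease results was not tested.

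Downstream of RANK, the adaptor TRAF6 passes the signal to NF-kappaB, to MAP kinases and AP-1, and through FOS to NFATC1, the master transcription factor of osteoclast formation in mammals. Of 24 genes of this chain tested besides the members, 11 were higher, 2 lower and 11 not past, with a median log2 fold change of 0.30. The higher ones include MITF (ENSDARG00000037833), with 18, 39 and 54 counts in exposed and 10, 14 and 4 in control libraries. That gene passed the count filter only through the exposed libraries. FOS rose to 228 ± 5.23 CPM in exposed libraries, against 113 ± 5.33 CPM in control libraries, and a gene for the kinase JNK1, MAPK8 (ENSDARG00000009870), to 12.8 ± 1.22, against 6.36 ± 0.981 CPM. The other MAPK8 gene, ENSDARG00000031888, did not pass (log2 fold change 0.41, adjusted p = 0.0692). The NF-kappaB subunit gene nfkb1 rose to 9.73 ± 1.07 CPM, against 4.97 ± 0.510 CPM. NFATC1 went the other way. It had 11.8, 8.59 and 10.9 CPM in exposed libraries 1, 2 and 3, against 13.1, 14.5 and 17.7 CPM in control libraries 1, 2 and 3, without overlap (log2 fold change -0.54 ± 0.14 SE, adjusted p = 0.00249). JUN, the AP-1 partner of FOS, was also lower, at 203 ± 5.52 CPM in exposed and 234 ± 4.13 CPM in control libraries (log2 fold change -0.20). NFATC1 and FOS are active in many cell types besides osteoclasts.

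Genes of costimulation, cell fusion and osteoclast identity were higher in 10 of 12 tested and lower in 0, with 2 not past and a median log2 fold change of 0.74. The higher ones include fcer1g and CALCR, which passed the count filter only through the exposed libraries. Their calls are no separate support for a difference. The symbols dcstamp, atp6v0d2 and oscar of this list had no match in the symbol table, so these genes are missing from the count. SPI1, which encodes PU.1, a transcription factor that macrophages and osteoclasts need, had 13.38, 12.64 and 11.96 CPM in exposed libraries 1, 2 and 3, against 4.24, 5.59 and 3.91 CPM in control libraries 1, 2 and 3. Its paralog spi1a rose to 13.0 ± 0.989 CPM, against 7.51 ± 0.108 CPM, and PLCG2, a phospholipase gene downstream of costimulatory receptors, to 7.68 ± 0.699, against 2.79 ± 0.275 CPM. These genes serve macrophages and other leukocytes as well, and SPI1 and IRF8 are also on the macrophage list, whose values stand above beside csf1ra.

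Osteoclasts hold on to bone through an integrin and a ring of actin-rich podosomes. Of 20 genes of this machinery tested, 15 were higher, 0 lower and 5 not past, with a median log2 fold change of 0.56. ITGB3 (ENSDARG00000056767), an integrin beta 3 gene, rose to 16.1 ± 0.901 CPM in exposed libraries, against 7.42 ± 1.80 CPM in control libraries, and the actin-severing gelsolin gene GSN (ENSDARG00000045262) to 171 ± 2.44, against 72.8 ± 2.91 CPM. The gene wasa, which encodes an actin nucleation factor of blood cells, rose to 3.99 ± 0.587 CPM, against 1.55 ± 0.448 CPM. Most of these genes are used for adhesion by many cells, including epidermis, whose markers were higher in 11 of 16 tested genes and lower in 1; the part of those cells in this result was not tested. Over all 108 pathway genes tested that are not members, 57.4% were higher and 13.9% lower. The higher share includes snx10b, fcer1g, CALCR and MITF (ENSDARG00000037833), which passed the count filter only through the exposed libraries. Over all 21194 genes tested, the shares were 20.1% and 18.7%. The lists were chosen with earlier results of these data known, so this difference in shares is no test of the pathway.

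**Figure D4:**
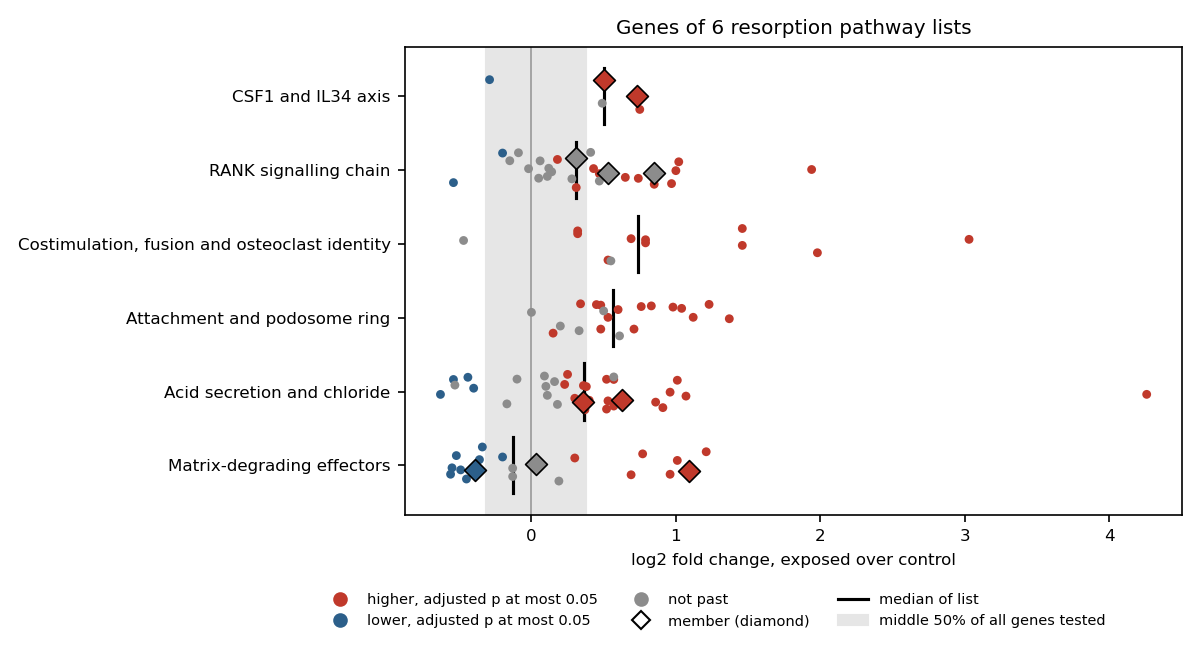
Log2 fold change, exposed over control, of each tested gene on 6 pathway lists, with members as diamonds, medians as black bars and the middle 50% of all 21194 genes tested as a grey band. Costimulation and attachment genes show no lower call. Genes on the matrix-degrading list, inhibitor genes included, lie on both sides of 0, with a median of -0.13 when the members are left out. The gene farthest to the right, at 4.26, is snx10b, which passed the count filter only through the exposed libraries.

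The members also differed in how closely replicates matched. In the exposed libraries the SD was 54.8% of the mean for tnfsf11, 7.27% for tnfrsf11a and 1.86% for tnfrsf11b, and 3.56% for ctsk. In the control libraries it was 69.5% for tnfsf11, 46.1% for tnfrsf11a and 44.5% for tnfrsf11b, and 2.75% for ctsk. The control SD exceeded the exposed SD, each as a share of its mean, for 8 of the 10 members, and for 65.1% of 21172 tested genes. No single control library stood apart in every gene. Control library 1 was highest among controls for csf1a, clcn7, ctsk and acp5b, control library 2 for tnfrsf11a, and control library 3 for tnfsf11, tnfrsf11b, csf1ra, acp5a and tcirg1b.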

How the data were processed

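The authors deposited raw read counts per Ensembl gene. The build was GRCz11 and the tools were featureCounts 2.0.6, STAR 2.7.10a, R 4.4.2 and FastQC, per the submitters' processing notes; options, strand setting and annotation release are not given in the sources used here. Of nonzero counts, 76.1% to 78.5% were even in exposed and 80.2% to 81.7% in control libraries. Both mates of a pair thus appear to have been counted, which makes counting errors larger than the counts imply. The exposed libraries had 23917 to 24236 genes with a count and the control libraries 22887 to 23253. Why the groups differed in these 2 measures was not tested. In the RefSeq table of another assembly, GRCz12tu, no member overlaps another gene. No transcript lengths were at hand, so levels are compared between groups within a gene or a summed list, not between genes.

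Counts were tested with edgeR 4.0.16 in R 4.3.3 (filterByExpr by group, minimum count 10 and minimum total 15; TMM scaling, robust quasi-likelihood F-test), exposed over control, with Benjamini-Hochberg adjustment over all 21194 genes tested and a threshold of 0.05. CPM uses the TMM factors. The SE and 95% interval of a fold change come from the test statistic. Ratios within libraries were compared by two-sided exact permutation. Replicates differed by more than sampling noise. Same-numbered libraries gave no sign of pairing (correlations of deviations between -0.0131 and 0.0119) and were not treated as pairs.

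Gene symbols came from a table covering 29201 of 32520 genes. Of the list symbols, 183 matched directly, 72 without their paralog letter and 7 by synonym, and 9 had no match in that table. The unmatched symbols were dcstamp, atp6v0d2, oscar, atp6v1ba, mpeg1.2, mfap4.2, mpx, cpa5 and il8. The members and lists were chosen with earlier results of these data known. From each pathway list, all called genes other than members are named where there were 6 or fewer, otherwise the 3 largest rises and falls with a mean of at least 1 CPM; paralogs and subunit pairs beside them were chosen after their values were seen. Alternatives were other scalings and filters, DESeq2 1.42.0, a replicate block, halved counts and leaving out each library.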

Additional observations from a re-analysis of the deposited data

How the results depend on the processing

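The counts of called genes and of called members stayed within 1.5 times the reported value under every alternative tried. Members called higher numbered 4 to 7 and members called lower 1 as each library was left out, and genes called higher 3484 to 4240 and lower 3215 to 3823. The calls of csf1a, csf1ra, ctsk and tcirg1b held under all 13 alternatives. With the replicate number as a block, 4282 genes were higher and 3882 lower, 4 members were higher and 1 lower, and the adjusted p of acp5a was 0.0585; the block changed no other call among the members, and the numbers gave no sign of pairing. The ratio of tnfsf11 to tnfrsf11b differed by -0.12 to 0.56 as libraries were left out and by 0.30 under the block (exact sign-flip test). The log2 fold change of acp5b lay between -0.09 and 0.15 as libraries were left out, at -0.0041 without exposed library 1, and the ratio of csf1ra to csf1rb differed by -0.22 to 0.33, at 0.02 without exposed library 1. Except for csf1b, the 25 pathway genes named by rule kept their calls under all alternatives. Most were picked for large changes, so this does not carry over to the list counts. As each library was left out, higher calls numbered 8 to 11 for costimulation and 13 to 16 for attachment. MITF (ENSDARG00000037833) lost its call under the block (adjusted p = 0.0501). It also did so without exposed library 2 (0.0869), exposed library 3 (0.177) or control library 3 (0.0602). Members with 255 to 290 counts in all (tnfsf11, acp5b, acp5a) have wide intervals, so small changes in them could be missed at this depth. Among them only acp5a passed with all libraries, at a log2 fold change of 1.09 with an interval of 0.24 to 1.93. Where a call was lost, the cause was not tested.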

Other observations

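Some genes closely tied to osteoclasts were too rare for the rule on named genes and were chosen here after their values were seen. Of these, snx10b, fcer1g and CALCR passed the count filter only through the exposed libraries, where they were high. Their adjusted p values are therefore no separate support for a difference. Exposed libraries also had more genes with any count, 23917 to 24236 against 22887 to 23253 in control libraries. The part of that difference in these rare genes was not tested. The sorting nexin gene snx10b, whose mammalian counterpart is needed for bone resorption, had 45, 56 and 58 counts in exposed libraries 1, 2 and 3, against 0, 6 and 2 in control libraries 1, 2 and 3. The exposed libraries were all far above the control libraries, with a log2 fold change of 4.26 (adjusted p = 4.46e-05), 5.42 without control library 2 and 3.71 without control library 1. From the summed counts the ratio was 19.5, with an exact 95% interval of 9.67 to 46.0 that covers counting error only and is too narrow if both mates were counted. Its paralog SNX10 was at 3.89 CPM in exposed and 2.63 CPM in control libraries and did not pass (adjusted p = 0.0884). The adaptor gene fcer1g, which pairs with costimulatory receptors of osteoclasts and other myeloid cells, had 41, 54 and 54 counts in exposed libraries, against 4, 10 and 4 in control libraries (log2 fold change 3.03, adjusted p = 3.78e-04).

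The calcitonin receptor gene CALCR, a marker of mature osteoclasts in mammals that nerve cells also use, had 30, 46 and 58 counts in exposed libraries, against 4, 12 and 16 in control libraries (log2 fold change 1.98, adjusted p = 0.0145). Its call was lost without exposed library 2 (0.0576) or exposed library 3 (0.0938), and its log2 fold change was 2.54 without control library 3. The fusion gene ocstamp had 4, 6 and 4 counts in exposed libraries, against 0, 2 and 0 in control libraries, too few to test. The siglec gene siglec15l had 4 counts in exposed libraries and 0 in control libraries, and the adaptor gene tyrobp had 26 in exposed and 16 in control libraries; neither was tested.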
